A study of Mus musculus with 6 samples.

Results

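The cytosolic ribosomal protein genes encode the protein components of the ribosome that translates nuclear messages. They were chosen by symbol: probe sets annotated with exactly 1 gene whose symbol is Rpl or Rps followed by a digit, plus Rplp0, Rplp1, Rplp2 and Rpsa. Pseudogenes, the ribosomal S6 kinases, Rps19bp1 and Rps27l were left out. Where a gene had several probe sets, the one with the highest mean over the 6 arrays was taken. This gave 61 genes of the 19938 genes measured, 23 of the small subunit and 38 of the large subunit. Of these, 54 are core components of the ribosome (21 small, 33 large) and 7 are paralogues or retroposed copies. A further 20 symbols that match the rule, among them Rpl11, Rpl3, Rps16 and Rps24, lie on probe sets shared by several genes and were not measured singly.

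The RNA came from B cells of mice carrying Em-Myc (Eµ-Myc), a transgene that places Myc under an enhancer of the immunoglobulin heavy chain locus and so makes B lineage cells overexpress it. All 3 groups carry that transgene, and each holds 2 arrays. In the first group were B cell lymphomas with shEzh2.781, in the second B cell lymphomas with shEzh2.556, both being short hairpin RNAs directed at Ezh2, the catalytic subunit of the polycomb complex that methylates histone H3. The third group was sorted splenic B cells of premalignant Em-Myc mice, which 1 field of the labels calls normal control cells. The ages and strain of the mice are not given in the sources used here. Lymphoma cells were purified by depletion with CD43 beads and carry GFP, whereas the premalignant cells were sorted, so lymphoma, hairpin and preparation cannot be told apart in a comparison with premalignant cells. Lymphomas lacking a hairpin were not analysed here. Whether the arrays of a group come from separate mice is not stated in the labels, so each p-value reflects only variation among these arrays, part of which may be technical.

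A ribosome is built from ribosomal RNA and one copy of most of its proteins, so cells make the proteins in near-equal amounts. Their messages begin with a cytosine followed by a run of pyrimidines, the terminal oligopyrimidine (TOP) motif, through which mTORC1 and LARP1 control their translation. Myc is known to raise ribosome production, and in the Eµ-Myc model the loss of one copy of the large subunit gene Rpl24 is known to slow lymphoma onset. When ribosome assembly is disturbed, free Rpl5 and Rpl11 together with the 5S ribosomal RNA bind Mdm2, the ubiquitin ligase of p53. Arrays of total RNA measure the level of the messages, not their translation.

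Promoter windows from RefSeq (GRCm38.p6), which run from 250 bases before to 50 bases after the annotated start, were found for 49 of the 61 genes. The sequences that follow cover the 30 bases before and the 30 bases after that start, 5′ to 3′ on the gene's strand, and capitals mark the longest run of C and T of at least 5 bases. The first 5 are shown because their run lies over the start, as in a TOP message. The next 3 belong to genes that stood highest in the lymphomas, and the last pair to the genes called between the hairpins.
Rps6, chr4:86857338-86857397, minus strand: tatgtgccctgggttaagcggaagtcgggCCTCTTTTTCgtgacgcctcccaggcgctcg
Rps10, chr17:27635215-27635274, minus strand: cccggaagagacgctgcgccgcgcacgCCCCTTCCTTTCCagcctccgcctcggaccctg
Rps18, chr17:33955636-33955695, minus strand: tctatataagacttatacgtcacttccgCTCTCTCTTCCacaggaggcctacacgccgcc
Rpl38, chr11:114668550-114668609, plus strand: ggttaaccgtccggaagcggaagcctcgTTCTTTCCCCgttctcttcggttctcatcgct
Rplp2, chr7:141447621-141447680, plus strand: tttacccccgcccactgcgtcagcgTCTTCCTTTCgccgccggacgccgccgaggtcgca
Rps3, chr7:99483680-99483739, minus strand: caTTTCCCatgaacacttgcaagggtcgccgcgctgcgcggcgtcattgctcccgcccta
Rps21, chr2:180257349-180257408, plus strand: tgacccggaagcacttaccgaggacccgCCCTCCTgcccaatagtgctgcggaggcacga
Rpl37a, chr1:72711230-72711289, plus strand: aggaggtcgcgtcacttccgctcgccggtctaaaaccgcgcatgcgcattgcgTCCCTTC
Rpl7l1, chr17:46782627-46782686, minus strand: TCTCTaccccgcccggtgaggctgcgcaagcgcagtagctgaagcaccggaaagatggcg
Rps23rg1, chr8:3567968-3568027, plus strand: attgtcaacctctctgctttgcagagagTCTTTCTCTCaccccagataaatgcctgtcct

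The core genes share sequence features that played no part in choosing them. Of the 43 core genes with a window, 31 (72.1%) hold CTTCCG, the core letters of an ETS factor motif, on either strand, against 23.5% of 17491 protein-coding genes. In the sequences above it can be read as cttccg in Rps18 and Rpl37a and as its reverse complement cggaag in Rps6, Rps10, Rpl38 and Rps21. The motif lies in 15 of 18 small subunit genes (83.3%) and in 16 of 25 large subunit genes (64.0%). CACGTG, the E-box bound by MYC with its partner MAX, lies in 5 of the 43 core genes (11.6%), against 8.91% of protein-coding genes. The TATA box letters TATAAA lie in 5 (11.6%), against 14.8%. The letters GCCATC, read on both strands like the other motifs, lie in 9 (20.9%), against 15.3%. The annotated start is a pyrimidine in 22 of the 43 core genes (51.2%), against 26.6% of protein-coding genes, and a run of at least 5 pyrimidines covers it in 13 (30.2%), against 10.2%. A run of at least 8 lies within 30 bases of the start in 21 (48.8%), against 25.4%. RefSeq starts may differ from the start used in these cells, and a match of letters is a description of the window.

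Ezh2 itself read 10.92 and 11.07 (log2) in the shEzh2.781 lymphomas and 11.20 and 11.30 in the shEzh2.556 lymphomas, against 12.64 and 12.70 in premalignant cells, so that the targeted gene was lower on all 4 lymphoma arrays. Over all genes the array medians lay between 7.02 and 7.18. The B cell markers measured (9 genes, among them Cd79a, Cd79b and Pax5) summed to 99.1 and 101.9 log2 units with shEzh2.781 and 100.6 and 100.5 with shEzh2.556, against 104.2 and 103.1 in premalignant cells. These genes did not move alike. For the mean of both hairpins against premalignant cells, Ighm differed by −2.06, Pax5 by −0.44 and Cd79a by −0.03. Cd79b differed by 0.12 and Cd22 by 0.55, and 2 of the 9 were above 0. The 11 neutrophil markers summed to 88.9 and 96.0 with shEzh2.781 and 76.8 and 70.4 with shEzh2.556, against 103.7 and 106.6 in premalignant cells, so the groups did not overlap. The 7 erythroid markers summed to 43.1 and 46.7 with shEzh2.781 and 54.3 and 51.5 with shEzh2.556, against 54.0 and 55.9 in premalignant cells. Log2 array values have no true 0, so no marker can be called absent from them. The part of other cells in the results on ribosomal protein genes was not tested. In bulk RNA of this kind, fewer cells of a type and less RNA per cell cannot be told apart.

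The ribosomal protein genes stood slightly higher in shEzh2.781 lymphomas than in premalignant cells, those of shEzh2.556 lymphomas had the same median difference as all genes, and no single gene passed the test. The median log2 difference over the 61 genes was 0.17 for shEzh2.781 and 0.07 for shEzh2.556, each against premalignant cells, and 0.11 for the mean of both hairpins. The medians over all 19938 genes were −0.03, 0.07 and 0.03 for the same comparisons. With shEzh2.781, 56 of the 61 differences were above 0 (91.8%, against 44.0% of all genes), and they ran between −0.26 (Rps23rg1) and 0.45 (Rps21). With shEzh2.556, 49 were above 0 (80.3%, against 59.8% of all genes), and they ran between −0.20 (Rps4l and Rpl7l1) and 0.36 (Rplp2). Without shEzh2.556 array 1, the shEzh2.556 median over the 61 genes was −0.01 with 28 above 0, against 0.05 over all genes, and without shEzh2.556 array 2 it was 0.13 with 54 above 0, against 0.08. After quantile normalization it was 0.03 for shEzh2.556, against 0.09 over all genes, and 0.12 for shEzh2.781, against 0.04. The limma fit over all genes with Benjamini-Hochberg adjustment called 0 of 61 at an adjusted p of 0.05 in each of the 3 comparisons. It called 10.8% of all genes for shEzh2.781 (4.6% higher, 6.24% lower), 18.2% for shEzh2.556 (6.8% higher, 11.4% lower) and 15.2% for both hairpins (5.6% higher, 9.61% lower).

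At an unadjusted p under 0.05, limma counted 16 of the 61 genes (26.2%) for shEzh2.781, against 22.4% of all genes. For shEzh2.556 it counted 4 (6.56%), against 33.5%, and for both hairpins 7 (11.5%), against 26.8%. The smallest adjusted p among the 61 was 0.0561 for shEzh2.781, 0.103 for shEzh2.556 and 0.0643 for both. The 95% interval lay wholly within a 1.5-fold difference in either direction for 51 genes with shEzh2.781, 58 with shEzh2.556 and 60 with both. Of all 19938 genes it did so for 16039, 14256 and 16616 in that order. The limma fit with an intensity trend and robust variances called 12 genes higher for shEzh2.781, 3 for shEzh2.556 and 8 for both, against 5.71%, 7.66% and 6.68% of all genes called higher by the same fit.

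Read array by array, most of the genes deviated in the same direction. Each gene's deviation from its own mean over the 6 arrays had a median over the small subunit of 0.089 and 0.155 log2 on the shEzh2.781 arrays, 0.050 and −0.123 on the shEzh2.556 arrays, and −0.032 and −0.157 on the premalignant arrays. Over the large subunit the medians were 0.056 and 0.116 with shEzh2.781, 0.044 and −0.061 with shEzh2.556, and −0.055 and −0.097 in premalignant cells. Both shEzh2.781 arrays thus stood above the other 4 in each subunit. The first shEzh2.556 array came next, and the second stood between the premalignant arrays.

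**Figure D1:**
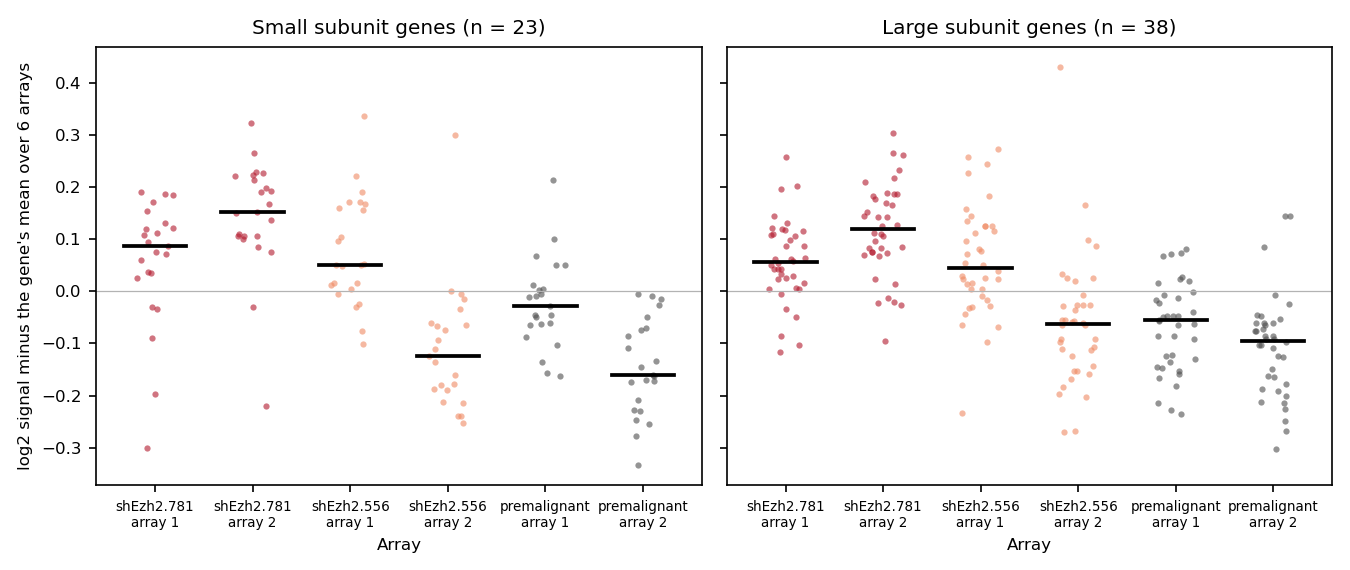
Deviation of each ribosomal protein gene from its own mean over the 6 arrays (log2, vertical axis), by array and group, with 1 point per gene and the median of each subunit marked. The shEzh2.781 arrays have small subunit medians of 0.089 and 0.155, the shEzh2.556 arrays 0.050 and −0.123, and the premalignant arrays −0.032 and −0.157.

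A count over genes gives the same order. On shEzh2.781 array 1, 50 of the 61 genes (82.0%) read above both premalignant arrays, where 33.1% of all genes did. On shEzh2.781 array 2 it was 57 (93.4%), against 29.9% of all genes. On shEzh2.556 array 1 it was 49 (80.3%), against 49.5%, and on shEzh2.556 array 2 it was 18 (29.5%), against 44.1%. Requiring both arrays of a group, 50 genes (82.0%) lay above both premalignant arrays with shEzh2.781, where 22.0% of all genes did, and 17 (27.9%) with shEzh2.556, where 35.8% did. All 4 lymphoma arrays lay above both premalignant arrays for 15 genes (24.6%), against 12.7% of all genes. In the other direction the arrays did not overlap for 2 genes with shEzh2.781, 3 with shEzh2.556 and 0 with all 4 arrays, against 28.6%, 26.5% and 16.1% of all genes.

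**Figure D2:**
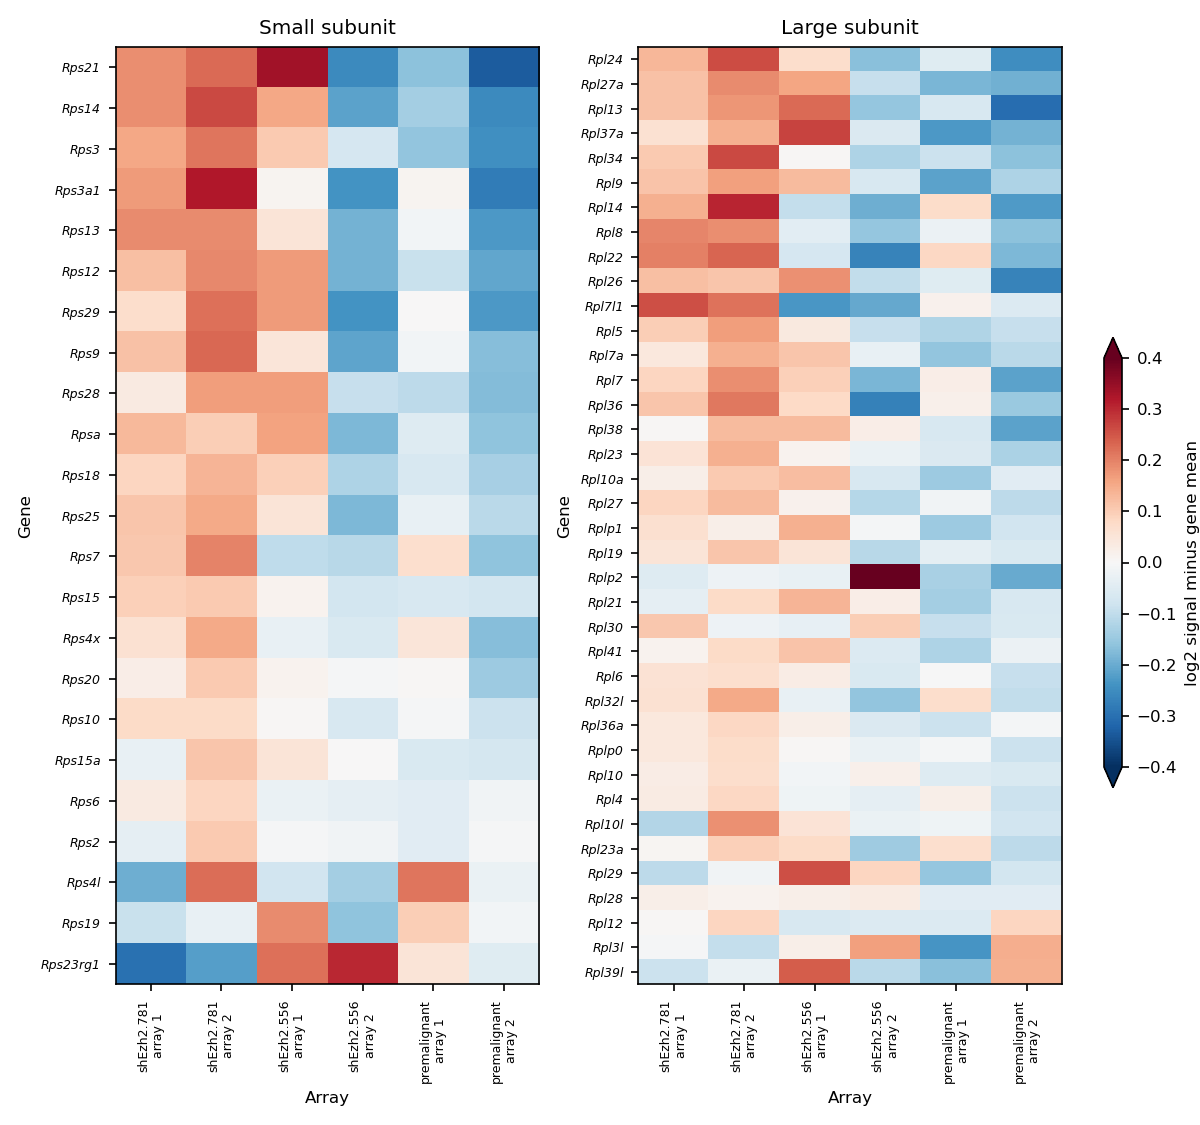
Deviation of the 61 ribosomal protein genes (rows, by subunit) from their own means on the 6 arrays (columns, by group), with colour showing log2 units. The second array of shEzh2.556 and the second premalignant array are below the first of their group for most genes, and 27 genes have both shEzh2.781 arrays above the other 4.

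The arrays of one group differed by amounts of the same size as the differences between groups. In shEzh2.556, 53 of the 61 genes read lower on array 2 than on array 1, with a median difference of −0.13, and 22 of 23 small subunit genes did so with a median of −0.22. Among premalignant arrays 44 genes read lower on array 2, with a median of −0.08. In shEzh2.781 the second array read higher for 52 genes, with a median of 0.07. The medians of all genes for these 3 array pairs, shEzh2.781 first, were −0.02, −0.01 and 0.08. The mitochondrial ribosomal protein genes moved between the arrays by 0.03 in shEzh2.781, −0.18 in shEzh2.556 and −0.18 in premalignant cells.

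Small and large subunit genes were close to each other in every group. With shEzh2.781 the median difference from premalignant cells was 0.21 over the 23 small subunit genes and 0.16 over the 38 large subunit genes. With shEzh2.556 it was 0.05 for the small and 0.08 for the large subunit, and with both hairpins it was 0.11 for each. Differences above 0 were found for 20 of 23 small and 36 of 38 large subunit genes with shEzh2.781, and for 19 of 23 and 30 of 38 with shEzh2.556. Over the 54 core genes alone the medians were 0.21 and 0.16 with shEzh2.781, and 0.05 and 0.08 with shEzh2.556, small before large.

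The gap between the subunits can be read on each array as the median deviation of small minus that of large subunit genes. It was 0.033 and 0.039 with shEzh2.781, 0.006 and −0.062 with shEzh2.556, and 0.023 and −0.060 in premalignant cells. The shEzh2.781 values lay above the other 4, the nearest being that of the first premalignant array. The pooled SD between arrays of a group was 0.044 for this gap, 0.091 for the small subunit and 0.052 for the large subunit, with 2 arrays in each of the 3 groups. The small subunit median therefore varied more between arrays of a group than the large subunit median. When either array of any group was left out, the gap between the medians of the differences stayed between 0.01 and 0.09 for shEzh2.781 and between −0.05 and 0.04 for shEzh2.556. Without shEzh2.556 array 1 the shEzh2.556 medians were −0.02 for the small and 0.02 for the large subunit, and without shEzh2.556 array 2 they were 0.14 and 0.11. After quantile normalization the gap for shEzh2.781 was −0.01.

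Among the small subunit genes, Rps21 had the largest difference with shEzh2.781. It read 11.27 and 11.31 in the shEzh2.781 lymphomas and 11.42 and 10.83 in the shEzh2.556 lymphomas, against 10.92 and 10.75 in premalignant cells. The difference was 0.45 ± 0.17 (SE, 2 arrays a group) for shEzh2.781, with a limma adjusted p of 0.120, and 0.29 for shEzh2.556, with an adjusted p of 0.242. One shEzh2.556 array was the highest of the 6 and the second lay between the premalignant arrays.

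Rps14, a protein of the platform whose loss causes the anaemia of 5q deletion in human, read 12.50 and 12.58 with shEzh2.781 and 12.47 and 12.10 with shEzh2.556, against 12.18 and 12.06 in premalignant cells. The shEzh2.781 difference was 0.42 ± 0.14 (SE), limma adjusted p 0.0751. Rps3, which lines the entry of the mRNA channel, read 12.74 and 12.80 with shEzh2.781 and 12.69 and 12.52 with shEzh2.556, against 12.43 and 12.34 in premalignant cells. All 4 of its lymphoma arrays lay above both premalignant ones, the shEzh2.781 difference was 0.38 ± 0.11 (SE), and its limma adjusted p of 0.0561 was the smallest among the 61 genes in that comparison. When dim genes were left out of the fit, Rps3 passed for shEzh2.781 (adjusted p 0.0373) and for both hairpins (0.0384).

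Rps3a1, a protein of the platform near the mRNA exit, read 10.46 and 10.61 with shEzh2.781 and 10.30 and 10.05 with shEzh2.556, against 10.30 and 10.01 in premalignant cells. Rps13 read 11.78 and 11.78 with shEzh2.781 and 11.64 and 11.40 with shEzh2.556, against 11.58 and 11.36 in premalignant cells. Rps12 read 12.42 and 12.49 with shEzh2.781 and 12.47 and 12.11 with shEzh2.556, against 12.21 and 12.09 in premalignant cells. In these 3 genes the first shEzh2.556 array reached or passed the upper premalignant array and the second did not.

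Rps19, Rps6 and Rps7 had smaller differences with shEzh2.781 than the small subunit genes above, at −0.11, 0.09 and 0.20. Rps19, mutated in human Diamond-Blackfan anaemia, was the core gene with the lowest difference in shEzh2.781 lymphomas: it read 12.54 and 12.60 there and 12.82 and 12.47 with shEzh2.556, against 12.73 and 12.62 in premalignant cells. Rps6, the substrate of the S6 kinases, read 13.50 and 13.55 with shEzh2.781 and 13.44 and 13.43 with shEzh2.556, against 13.42 and 13.45 in premalignant cells. Rps7 read 12.98 and 13.07 with shEzh2.781 and 12.77 and 12.76 with shEzh2.556, against 12.94 and 12.71 in premalignant cells. For Rps6 the 95% interval for shEzh2.556 against premalignant cells ran between −0.24 and 0.23 log2 units.

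**Figure D3:**
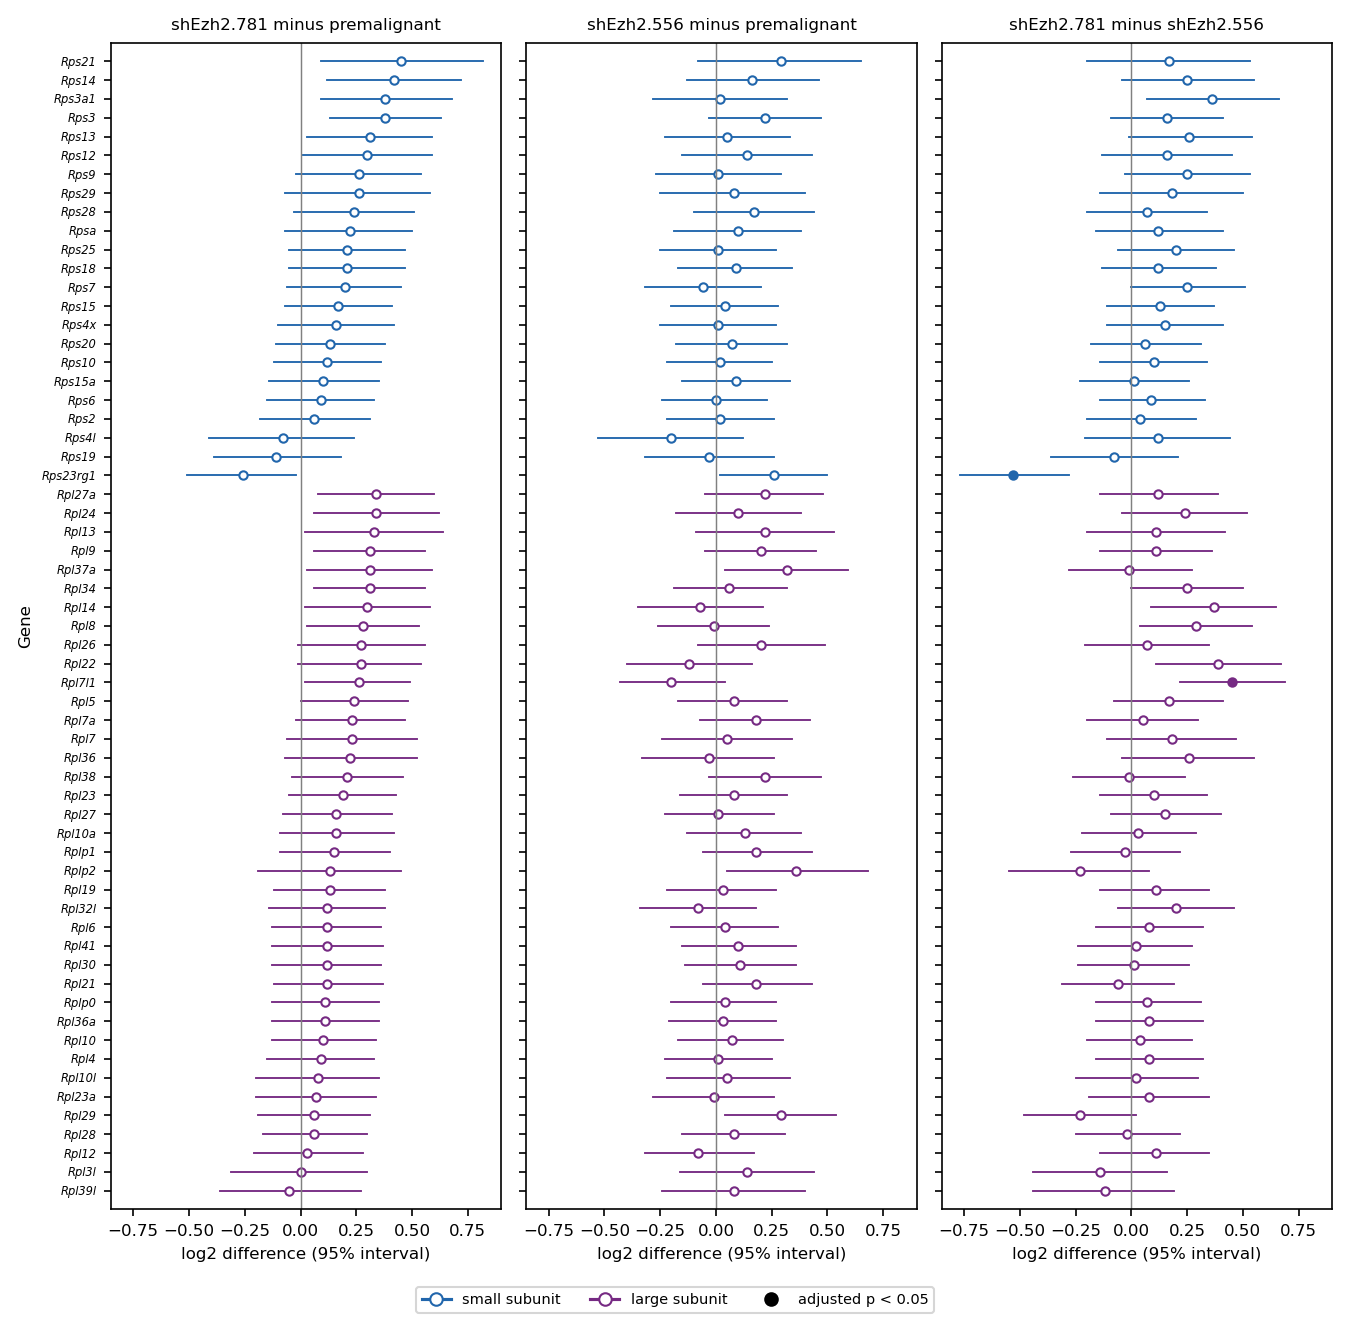
Log2 difference of each of the 61 ribosomal protein genes with its 95% interval from limma (horizontal axis), for shEzh2.781 minus premalignant, shEzh2.556 minus premalignant and shEzh2.781 minus shEzh2.556, with small subunit genes above large subunit genes. Filled points have an adjusted p under 0.05, which holds for Rpl7l1 (0.45) and Rps23rg1 (−0.53) between the hairpins and for no gene against premalignant cells.

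In the large subunit, Rpl27a read 12.55 and 12.62 with shEzh2.781 and 12.59 and 12.34 with shEzh2.556, against 12.25 and 12.24 in premalignant cells. Its difference was 0.34 ± 0.12 (SE) for shEzh2.781 and 0.22 for shEzh2.556, with limma adjusted p of 0.105 and 0.226. Rpl9 read 13.08 and 13.13 with shEzh2.781 and 13.09 and 12.90 with shEzh2.556, against 12.75 and 12.84 in premalignant cells. Neither gene's lymphoma arrays overlapped the premalignant arrays.

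Rpl24, part of a bridge between the subunits and known in the mouse from the Belly spot and tail mutant, read 11.88 and 12.01 with shEzh2.781 and 11.82 and 11.58 with shEzh2.556, against 11.70 and 11.50 in premalignant cells. Its shEzh2.781 difference was 0.34 ± 0.13 (SE), limma adjusted p 0.126, and the second shEzh2.556 array lay between the premalignant arrays. Rpl13 read 11.93 and 11.99 with shEzh2.781 and 12.04 and 11.66 with shEzh2.556, against 11.75 and 11.51 in premalignant cells, which is the same arrangement. Rpl34 read 11.59 and 11.75 with shEzh2.781 and 11.49 and 11.36 with shEzh2.556, against 11.40 and 11.32 in premalignant cells.

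Rpl29 had its highest values with shEzh2.556. It read 11.97 and 12.06 with shEzh2.781 and 12.33 and 12.16 with shEzh2.556, against 11.92 and 12.00 in premalignant cells. Its shEzh2.556 difference was 0.29 ± 0.11 (SE), limma adjusted p 0.103. Rpl37a, a small zinc finger protein, read 12.62 and 12.70 with shEzh2.781 and 12.83 and 12.50 with shEzh2.556, against 12.33 and 12.37 in premalignant cells, so all 4 lymphoma arrays lay higher. Rpl38, which in mouse embryos is known for the translation of Hox messages, read 12.66 and 12.78 with shEzh2.781 and 12.78 and 12.68 with shEzh2.556, against 12.59 and 12.44 in premalignant cells.

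Rpl22, which is deleted in some T cell leukaemias, read 9.90 and 9.93 with shEzh2.781 and 9.63 and 9.43 with shEzh2.556, against 9.78 and 9.52 in premalignant cells. Rpl14 read 10.76 and 10.92 with shEzh2.781 and 10.52 and 10.42 with shEzh2.556, against 10.69 and 10.39 in premalignant cells. Both read higher in shEzh2.781 lymphomas than on any other array. Rpl8 read 12.74 and 12.73 with shEzh2.781 and 12.50 and 12.39 with shEzh2.556, against 12.52 and 12.38 in premalignant cells. Rpl12, at the base of the stalk, read 9.93 and 10.01 with shEzh2.781 and 9.86 and 9.87 with shEzh2.556, against 9.87 and 10.01 in premalignant cells. Rpl36 read 13.14 and 13.24 with shEzh2.781 and 13.11 and 12.76 with shEzh2.556, against 13.05 and 12.88 in premalignant cells.

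The P stalk of the large subunit recruits the translation GTPases and is built from Rplp0, Rplp1 and Rplp2. Rplp0 read 13.61 and 13.64 with shEzh2.781 and 13.57 and 13.54 with shEzh2.556, against 13.56 and 13.48 in premalignant cells. Rplp1 read 13.78 and 13.74 with shEzh2.781 and 13.86 and 13.71 with shEzh2.556, against 13.57 and 13.64 in premalignant cells. Rplp2 read 8.19 and 8.22 with shEzh2.781 and 8.21 and 8.67 with shEzh2.556, against 8.11 and 8.04 in premalignant cells, and only its second shEzh2.556 array stood well apart. Its shEzh2.556 difference of 0.36 ± 0.14 (SE) had a limma adjusted p of 0.103. After quantile normalization it was 0.48 with an adjusted p of 0.0338. The Rplp2 probe set thus went against most members, which read lower on the second shEzh2.556 array. It is the only 1 of that gene, and its mean was 8.24, against 13.57 for Rplp0 and 13.71 for Rplp1. Whether so dim a probe set reports the Rplp2 message was not tested.

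Rpl5, the measured partner of the 5S ribosomal RNA, read 12.97 and 13.04 with shEzh2.781 and 12.91 and 12.78 with shEzh2.556, against 12.75 and 12.78 in premalignant cells. Its shEzh2.781 difference was 0.24 ± 0.11 (SE), limma adjusted p 0.229. Fau, whose product is processed to a small subunit protein but whose symbol is outside the rule, read 12.78 and 12.79 with shEzh2.781 and 12.84 and 12.64 with shEzh2.556, against 12.72 and 12.68 in premalignant cells. Its groups overlapped for shEzh2.556 only.

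Of the paralogues and copies, Rpl3l, a muscle form of Rpl3, and Rpl10l and Rpl39l, which are known from testis, read 5.53 and 5.44, 6.26 and 6.56, and 4.23 and 4.29 with shEzh2.781. In the same order they read 5.56 and 5.70, 6.43 and 6.35, and 4.56 and 4.21 with shEzh2.556, against 5.30 and 5.68, 6.36 and 6.30, and 4.15 and 4.46 in premalignant cells. Each lymphoma group overlapped the premalignant arrays for all 3. Rpl32l read 9.18 and 9.27 with shEzh2.781 and 9.09 and 8.96 with shEzh2.556, against 9.19 and 9.02 in premalignant cells. Rps4l read 6.90 and 7.32 with shEzh2.781 and 7.02 and 6.96 with shEzh2.556, against 7.31 and 7.07 in premalignant cells.

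Between the hairpins 2 of the 61 genes were called, both of them copies outside the core: 1 was higher with shEzh2.781, where 5.5% of all genes were, and 1 was lower, where 4.53% were, 10.0% in both directions together. Rpl7l1, a paralogue of Rpl7, read 12.03 and 11.99 in shEzh2.781 lymphomas and 11.54 and 11.57 in shEzh2.556 lymphomas, with 11.79 and 11.72 in premalignant cells between them. It was 0.45 ± 0.11 (SE) higher with shEzh2.781, limma adjusted p 0.0255. Rps23rg1, a retroposed copy of Rps23 in the mouse, read 6.80 and 6.88 in shEzh2.781 lymphomas and 7.32 and 7.40 in shEzh2.556 lymphomas, with 7.15 and 7.05 in premalignant cells between them. It was lower with shEzh2.781 by −0.53 ± 0.11 (SE), limma adjusted p 0.0144. The sequence of a retroposed copy is close to that of its parent, so its probes may also read the parent's message.

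Both calls rest on small groups. Without any one of the 4 lymphoma arrays the difference of Rpl7l1 lay between 0.43 and 0.47 with an adjusted p between 0.0753 and 0.122. After quantile normalization it was 0.37 (adjusted p 0.0556), and after centring each array on its median 0.57 (0.0109). Of these 4 omissions, Rps23rg1 kept its call only without shEzh2.781 array 2 (adjusted p 0.0399), its difference lying between −0.57 and −0.48. After quantile normalization it was −0.45 (adjusted p 0.0329), and after centring −0.41 (0.0504). The 3100 genes whose mean signal was within 0.5 log2 of that of Rps23rg1 had a median difference of −0.19 between the hairpins, and 8.58% of them were called lower. The 742 genes of like signal to Rpl7l1 had a median of 0.07, and 3.64% of them were called higher. The part of signal level in the calls was not tested.

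Over all 61 genes the median difference between the hairpins was 0.11, with 50 above 0, against a median of −0.07 over all genes. By subunit it was 0.13 for the small and 0.08 for the large subunit. The arrays did not overlap for 29 genes (47.5%) with shEzh2.781 higher, where 25.0% of all genes did so, and for 4 genes (6.56%) with it lower, where 40.1% did. At an unadjusted limma p under 0.05 there were 6 genes (9.84%), against 31.0% of all genes. After Rpl7l1 the largest differences were in Rpl22 (0.39 ± 0.13 SE, limma adjusted p 0.0713), Rpl14 (0.37 ± 0.13, adjusted p 0.0860), Rps3a1 (0.36) and Rpl8 (0.29). On the other side stood Rplp2 and Rpl29, each at −0.23, then Rpl3l (−0.14) and Rpl39l (−0.12). Centring each array on its median moved the median of all genes between the hairpins by 0.11, and the median over the 61 genes was then 0.22. Without shEzh2.556 array 2 the median over the 61 genes was 0.04 with 36 above 0, and without shEzh2.556 array 1 it was 0.17 with 54 above 0.

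The size of the shEzh2.781 difference varied with the signal of the probe set. For the 10 genes with a mean under 10 log2 the median difference was 0.05, for the 10 genes between 10 and 12 it was 0.31, for the 26 between 12 and 13 it was 0.22, and for the 15 at 13 or more it was 0.12. All genes in these 4 ranges had medians of −0.04, 0.01, 0.09 and 0.09. With shEzh2.556 the medians of the ribosomal protein genes were 0.07, 0.08, 0.08 and 0.07, against 0.09, −0.08, 0.01 and 0.04 for all genes. The part of signal level in these differences was not tested.

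**Figure D4:**
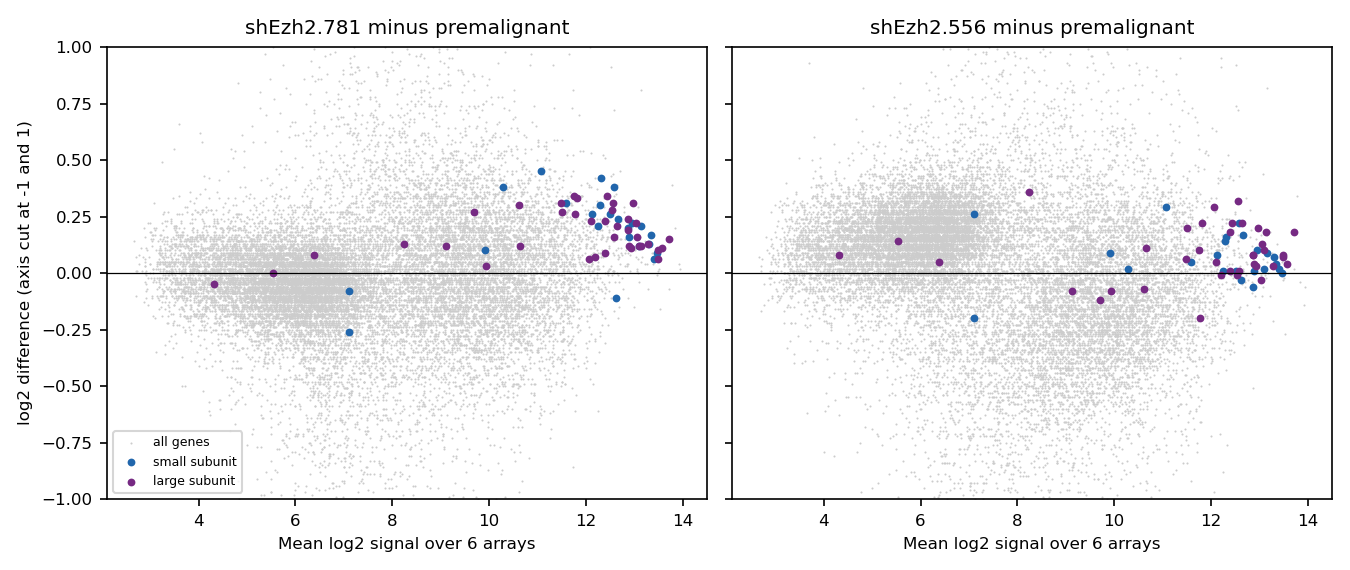
Log2 difference of each ribosomal protein gene (vertical axis) against its mean log2 signal over the 6 arrays (horizontal axis), for each hairpin against premalignant cells. Grey points are all genes, and the horizontal line marks no difference. With shEzh2.781 the medians were 0.05 under 10, 0.31 between 10 and 12, 0.22 between 12 and 13 and 0.12 at 13 or more.

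The genes could be checked against their own second probe sets. The 61 genes have 217 probe sets with a single symbol, 39 genes have more than 1, and Rps12 has the most at 14. Some repeat the values of another: the 217 hold 205 distinct profiles, and the 14 of Rps12 hold 8. Probe sets of a gene are thus not all separate checks. Ribosomal protein genes have many processed pseudogenes and near-identical copies, so probe sets annotated to a gene may read several of them. Within a gene the differences spread over a median of 0.06 for shEzh2.781 and 0.07 for shEzh2.556, each against premalignant cells, and at most over 0.25 and 0.28. With shEzh2.781, 212 of the 217 probe sets were above 0, and with shEzh2.556 it was 175. Of all genes, 44.0% and 59.8% were above 0 in these comparisons. Probe sets of 1 gene took both signs in 1 of 39 genes with shEzh2.781 and in 9 of 39 with shEzh2.556. Tested over every probe set, 1 of the 217 was called against premalignant cells, a second probe set of Rpl23 with shEzh2.781 (0.43, limma adjusted p 0.0353), while the probe set taken for Rpl23 gave 0.19. Between the hairpins 3 of the 217 were called: those of Rpl7l1 and Rps23rg1, and the second probe set of Rpl23, a core gene. That of Rpl23 was higher with shEzh2.781 (0.42, limma adjusted p 0.0446), while the probe set taken gave 0.10. The share called over all probe sets is not given here. By the fit over genes, 10.8% of all genes were called for shEzh2.781 and 10.0% between the hairpins.

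Other parts of the translation machinery were read from lists. The mitochondrial ribosomal proteins, made in the cytosol and imported, had a median of 0.22 with shEzh2.781 and 0.05 with shEzh2.556 over 77 genes, each against premalignant cells. With shEzh2.781, 4 of 77 rose and 0 fell, where 4.6% of all genes rose: Mrps12 (0.48), Mrps18a (0.50), Mrpl19 (0.45) and Mrps17 (0.47). With shEzh2.556, Mrps12 rose (0.71) and Mrpl1 fell (−0.41), where 6.8% of all genes rose and 11.4% fell. For the mean of the hairpins only Mrps12 passed (0.60, limma adjusted p 0.00297), where 5.6% of all genes rose. Mrps12 read 8.24 and 8.32 with shEzh2.781 and 8.66 and 8.35 with shEzh2.556, against 7.83 and 7.76 in premalignant cells. Between the hairpins 6 of 77 were higher with shEzh2.781, where 5.5% of all genes were: Mrpl42, Mrpl46, Mrpl47, Mrps14, Mrps17 and Mrps36. Of these 6, Mrps17 was also called for shEzh2.781 against premalignant cells, and the other 5 were called against premalignant cells with neither hairpin.

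Of 32 initiation factors, 2 rose and 0 fell by the mean of the hairpins, where 5.6% of all genes rose: Eif3i (0.41, limma adjusted p 0.0243), a subunit of the complex that binds the small subunit, and Eif1a (0.35, adjusted p 0.0322). Taken singly, Eif3i passed for shEzh2.781 (adjusted p 0.0496) and not for shEzh2.556 (0.0522), and Eif1a passed for neither (0.0546 and 0.0751). The list's median was 0.14 for shEzh2.781 and 0.03 for shEzh2.556. Of 9 elongation and release factors, Eef1e1, a subunit of the aminoacyl-tRNA synthetase complex, rose by the mean of the hairpins (0.33, limma adjusted p 0.0324) but passed with neither hairpin singly (adjusted p 0.0562 for shEzh2.781 and 0.0741 for shEzh2.556), and the medians were 0.24 for shEzh2.781 and 0.11 for shEzh2.556. Of 14 other genes with TOP messages, 0 were called in any comparison, where 10.0% to 18.2% of all genes were. The medians of these 14 were 0.10 for shEzh2.781 and 0.03 for shEzh2.556. Among these Eef2, which moves the ribosome along the message, read 13.51 and 13.50 with shEzh2.781 and 13.44 and 13.49 with shEzh2.556, against 13.48 and 13.50 in premalignant cells.

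Of 22 genes for ribosomal protein chaperones and subunit assembly, 1 was called, with shEzh2.556, where 6.8% of all genes rose. It was Heatr3, which carries Rpl5 into the nucleus (0.36, limma adjusted p 0.0417). The list's medians were 0.21 for shEzh2.781 and 0.15 for shEzh2.556. In the list of genes that control TOP messages (11 measured), Mtor, the kinase of mTORC1, read 11.12 and 10.98 with shEzh2.781 and 10.27 and 10.26 with shEzh2.556, against 10.25 and 10.56 in premalignant cells. It rose with shEzh2.781 against premalignant cells (0.64, limma adjusted p 0.00678) and was higher than with shEzh2.556 (0.78, adjusted p 0.00353). Tsc2, an inhibitor of mTORC1 signalling, fell with shEzh2.781 (−0.48, limma adjusted p 0.0138), and its partner Tsc1 fell with shEzh2.556 (−0.44, adjusted p 0.0200). Both fell by the mean of the hairpins (−0.37 each), where 9.61% of all genes fell. Over all genes 4.6% rose and 6.24% fell with shEzh2.781, 11.4% fell with shEzh2.556, and 5.5% were higher with shEzh2.781 than shEzh2.556. Larp1, the repressor that binds the TOP motif, differed by 0.03 with shEzh2.781 and 0.11 with shEzh2.556. Rptor differed by −0.19 and −0.24 and Rps6kb2 by −0.47 and −0.21 in that order, and neither gene was called. Of the 11 genes, 6 were above 0 with shEzh2.781 and 4 with shEzh2.556, and the list's medians were 0.03 and −0.14. The activity of mTORC1 was not tested.

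Of 6 genes on nucleolar stress and p53, Mdm2 fell with each hairpin. It read 9.04 and 8.96 with shEzh2.781 and 8.92 and 9.12 with shEzh2.556, against 9.53 and 9.59 in premalignant cells, with differences of −0.56 (limma adjusted p 0.0086) and −0.54 (adjusted p 0.00716). Znhit3, a factor of small nucleolar RNP assembly, rose with shEzh2.781 (0.53, limma adjusted p 0.0204). Over all genes 4.6% rose and 6.24% fell with shEzh2.781, and 11.4% fell with shEzh2.556.

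**Figure D5:**
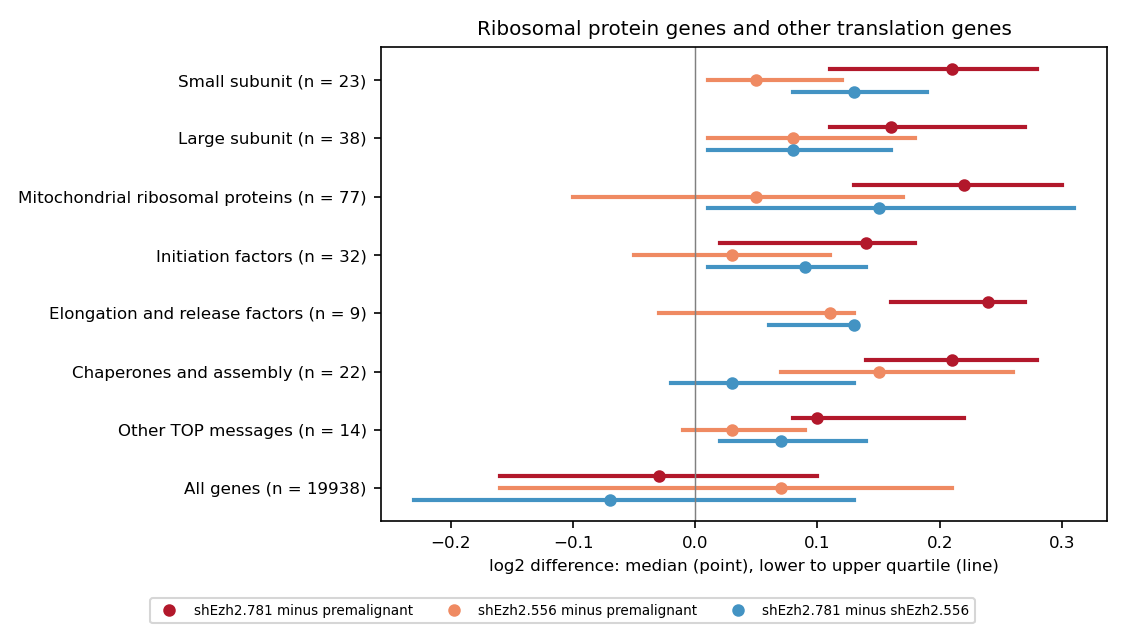
Median log2 difference (point) and lower to upper quartile (line) for the small and large subunit genes, other translation lists and all genes, for shEzh2.781 minus premalignant, shEzh2.556 minus premalignant and shEzh2.781 minus shEzh2.556. The shEzh2.781 medians were 0.21 and 0.16 for the subunits and 0.22 for mitochondrial ribosomal proteins, against −0.03 for all genes.

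Genes outside the list whose array pattern was most like the subunit medians were Nt5c, Mydgf, Smim26, Vmn1r29 and Mrto4. Their Pearson correlation over the 6 arrays, as the mean of that with the small and that with the large subunit median, ran between 0.971 and 0.979. The 6 points share their arrays and normalization, so these values are a description. Mrto4 encodes an assembly factor of the large subunit and Vmn1r29 a vomeronasal receptor. Vmn1r29 had a signal between 3.65 and 3.83 log2 on the 6 arrays.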

How the data were processed

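Total RNA of 6 samples was hybridised to Affymetrix Mouse Gene 1.0 ST arrays. The log2 values deposited by the authors, 1 per probe set, ran between 2.3 and 14.22, a log2 scale being taken from that range, and the background correction, normalization and summary are not given in the sources used here. Of 35512 probe sets, 21789 had 1 gene symbol, 1621 several and 12102 none; only the first kind was used. Symbols were updated through Entrez identifiers (21698 found in the RefSeq table, GRCm38.p6), which changed 0. The probe set with the highest mean stood for a gene.

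The 3 group means were fitted over 19938 genes with limma 3.58.1 in R 4.3.3 (lmFit, contrasts.fit, eBayes; 8.51 prior and 3 residual degrees of freedom, no covariate), with Benjamini-Hochberg adjustment over all genes and calls at 0.05. Intervals are 95% intervals of that fit. The fit was tested on simulated data. List medians and counts are descriptions. The members, lists, tests and alternatives were chosen with earlier results of these data known. Genes named with array values were any called member, the 8 largest rises and falls per hairpin, the 5 per direction between hairpins, all paralogues, the P stalk and Rpl5; others were chosen after their values were seen. Within lists, genes with the smallest p were named, and Eef2, Larp1, Rptor and Rps6kb2 were chosen after their values were seen. Promoter letters were searched on both strands in RefSeq windows. Tables were made with pandas 2.3.3 and numpy 2.4.6 under Python 3.11.15, and plots with matplotlib 3.10.9. Alternatives were quantile normalization, centring on array medians, leaving out dim genes, the mean of a gene's probe sets, an intensity trend with robust variances, the lymphomas as one group, a replicate block, and leaving out each array; 2 were added after the data were seen, the core genes alone and every probe set tested by itself.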

Additional observations from a re-analysis of the deposited data

Results flagged for a closer look

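The following differed between the hairpins by the limma test of that difference, at an adjusted p under 0.05. Each value is shEzh2.781 minus shEzh2.556 on the log2 scale. Of the 61 ribosomal protein genes these were Rpl7l1 at 0.45 and Rps23rg1 at −0.53. Among mitochondrial ribosomal proteins they were Mrpl42 at 0.67, Mrpl46 at 0.63, Mrpl47 at 0.58, Mrps36 at 0.56, Mrps14 at 0.53 and Mrps17 at 0.50. In the other lists they were Mtor at 0.78 and Znhit3 at 0.48. Groups of 2 arrays are too small for the outlier test, which was not run.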

How the results depend on the processing

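With the intensity trend and robust variances, ribosomal protein genes called higher were 8 for both hairpins, 12 for shEzh2.781, 3 for shEzh2.556 and, for shEzh2.781 over shEzh2.556, 6, with 1 lower (Rps23rg1). Over all genes the shares called higher were 6.68%, 5.71%, 7.66% and 7.5%. Centring called 4 higher for shEzh2.781, and 2 higher and 0 lower between the hairpins, where 6.05% and 9.59% of all genes were called higher. It put the large subunit median at 0.24 for shEzh2.781, and between the hairpins the small at 0.25 and the large at 0.20. Quantile normalization called 1 higher for shEzh2.556 and 0 higher between the hairpins, where 9.59% and 4.1% of all genes were, and it put the small minus large gap for shEzh2.781 at −0.01. Leaving out dim genes called 1 higher (Rps3) for both hairpins and 1 for shEzh2.781, where 10.5% and 8.83% of the genes left were.

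The other lists (162 genes) pool translation genes with those on TOP control and on nucleolar stress and p53. Their lower calls were Tsc1, Tsc2 and Mdm2 for both hairpins, Tsc2 and Mdm2 for shEzh2.781, and Tsc1, Mdm2 and Mrpl1 for shEzh2.556. Mtor and Znhit3 were among the higher calls for shEzh2.781 and between the hairpins. For both hairpins there were 4 higher and 3 lower calls, and for shEzh2.781 7 and 2. For shEzh2.556 there were 2 and 3, and between the hairpins 8 and 0. In the same order the shares of all genes called higher were 5.6%, 4.6%, 6.8% and 5.5%, and lower 9.61%, 6.24%, 11.4% and 4.53%. The intensity trend gave 21 higher and 5 lower for both, 20 higher for shEzh2.781, 12 higher and 5 lower for shEzh2.556, and 16 higher between the hairpins. It called 6.68%, 5.71%, 7.66% and 7.5% of all genes higher in that order. In either direction it called 17.9% for both and 20.9% for shEzh2.556. Quantile normalization gave 19 higher for both, 14 for shEzh2.556 and 1 between the hairpins, where 7.98%, 9.59% and 4.1% of all genes were. Centring gave 14 higher for shEzh2.781, 1 for shEzh2.556 and 17 between the hairpins, where 6.05%, 5.83% and 9.59% of all genes were. Without dim genes there were 14 higher for both, 12 for shEzh2.781 and 9 for shEzh2.556. Of the genes left, 10.5%, 8.83% and 10.1% were called higher in that order. The lymphomas taken as one group gave 1 higher and 1 lower for both, where 2.05% of all genes were called higher and 5.47% in either direction. The cause of these shifts was not tested.

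Over all genes the correlations of same-numbered deviations were −0.091 (shEzh2.781 with premalignant), −0.124 (shEzh2.556 with premalignant) and 0.064 (shEzh2.781 with shEzh2.556). For 40 of the 61 genes array 2 read below array 1 in both shEzh2.556 and premalignant cells, while in shEzh2.781 it read higher for 52. Whether same-numbered arrays belong together cannot be told from these values. With a replicate block 1 gene of the other lists was called higher for shEzh2.556, where 6.15% of all genes were. In that limma fit Rpl7l1 (adjusted p 0.0379) and Rps23rg1 (0.021) kept their calls between the hairpins.

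A group left with 1 array was assumed to vary like the other groups. With each array left out in turn, the median over the 61 genes ran between 0.08 and 0.15 for both hairpins. It ran between 0.15 and 0.21 for shEzh2.781, −0.01 and 0.13 for shEzh2.556, and 0.04 and 0.17 between the hairpins. The small subunit median ran between 0.16 and 0.27 for shEzh2.781, −0.02 and 0.14 for shEzh2.556, 0.06 and 0.18 for both and 0.07 and 0.23 between the hairpins. The large subunit median ran between 0.14 and 0.19, 0.02 and 0.11, 0.10 and 0.14, and 0.03 and 0.13 in the same order. The gap ran between 0.01 and 0.09, −0.05 and 0.04, −0.06 and 0.05, and 0.04 and 0.11. Higher calls in the other lists ran between 1 and 8 for shEzh2.781, 1 and 5 for shEzh2.556, 1 and 7 for both and 1 and 10 between the hairpins, and lower calls between 0 and 3, 0 and 6, 1 and 3, and 0 and 1. In each of these fits 1 group held a single array, so these calls rest on its assumed variation. The counts therefore cannot show whether the other lists held more calls than their share of all genes. The number of arrays limits the precision. Against premalignant cells the intervals of 51 to 60 of the 61 genes lay within a 1.5-fold difference, as did those of 14256 to 16616 of all 19938 genes.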
